A study of Citrullus lanatus with 4 samples.

Results

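The genes described here are 70 watermelon genes with abundant mRNA in both floral organs of a male fertile line and only a few sequenced fragments in the same organs of its male sterile counterpart. They were picked on the measured values of all 4 libraries. Each had at least 150 CPM (the count of a gene per 1000000 counts of its library) in flowers and in floral buds of the fertile line, under 10 CPM in both organs of the sterile line, at least 1 count over the sterile libraries, and a flower to floral bud ratio in the fertile line under 3-fold in either direction after 1 CPM was added. The count table held 23440 genes, of which 19732 had at least 1 count in some library. The low level in the sterile line and the similar level in the organs of the fertile line therefore follow from the selection and are given as descriptions.

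DAH3615-MS is a genic male sterile line (msms) derived from the Chinese ms-1 source of male sterility, and DAH3615 is its near-isogenic male fertile line (Msms). Both were taken from progenies of a segregating population in a backcross programme and were grown in a greenhouse. Flowers were collected when flowering began, and floral buds 1 day earlier, from other nodes of the plants and at a smaller bud size in DAH3615-MS. RNA of the whole organs was sequenced in 1 library per condition (DAH3615-MS flower, DAH3615-MS floral bud, DAH3615 flower and DAH3615 floral bud). The number of plants behind each library was not given in the sources used here, no condition had a replicate, and every interval in the text is a 95% exact interval that covers counting error only.

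Pollen forms inside the anther. The cells that enter meiosis there are surrounded by the tapetum, a cell layer that feeds the young microspores and supplies material for the pollen wall. Late in development the pollen grain stores large amounts of mRNA for germination and for the growth of the pollen tube. Products of these mRNAs include enzymes that act on the cell wall, such as pectinesterases, and proteins that organise actin filaments, such as profilins and LIM domain proteins. In whole organs, fewer cells of a type and less mRNA per cell cannot be told apart.

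The libraries held 5239032 counts on genes for DAH3615-MS flowers and 5778852 for DAH3615-MS floral buds, against 6315796 for DAH3615 flowers and 5631190 for DAH3615 floral buds. A single count was thus worth 0.191 CPM in DAH3615-MS flowers and 0.173 CPM in DAH3615-MS floral buds. A count of 0 allows up to 3 counts, which is 0.573 CPM in DAH3615-MS flowers and 0.519 CPM in DAH3615-MS floral buds. Folds given below as at least a value use this limit of 3 counts, not the exact interval. They also leave out counting error in DAH3615. Between 18104 and 18769 genes were detected per library.

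The 70 genes together carried 396 counts in DAH3615-MS flowers and 529 in DAH3615-MS floral buds, against 278061 in DAH3615 flowers and 184854 in DAH3615 floral buds. As shares of the libraries these were 0.00756% (0.00683% to 0.00834%) in DAH3615-MS flowers and 0.00915% (0.00839% to 0.00997%) in DAH3615-MS floral buds, against 4.40% in DAH3615 flowers and 3.28% in DAH3615 floral buds. The values of the lines did not overlap for any gene of the set, as the selection requires. The median gene had 0.191 CPM (0 to 8.97) in DAH3615-MS flowers and 0.346 CPM (0 to 9.17) in DAH3615-MS floral buds, against 459 CPM (160.4 to 3268) in DAH3615 flowers and 357 CPM (151 to 2258) in DAH3615 floral buds.

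**Figure D1:**
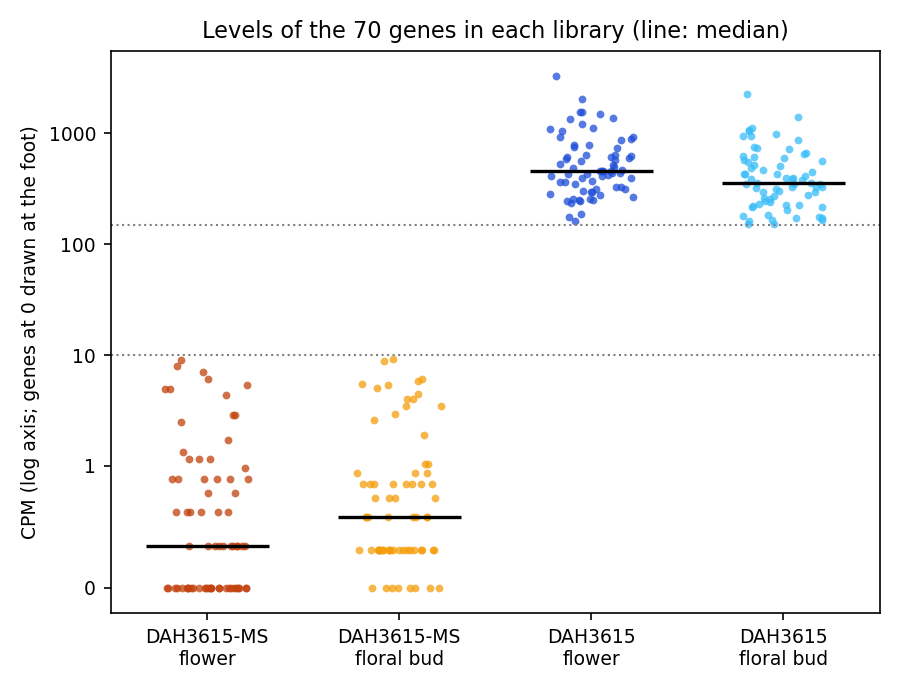
CPM (log axis, with genes at 0 placed at the foot) of each of the 70 genes in each library, where a point is a gene, the bar is the median and the dotted lines are the limits of 10 and 150 CPM used to pick the genes. The points of DAH3615-MS lie between 0 and 9.17 CPM and those of DAH3615 between 151 and 3268 CPM, a gap that the selection sets.

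An additive model of line and organ fitted to all 19732 genes placed each of the 70 genes lower in DAH3615-MS at an adjusted p under 0.01 (edgeR's quasi-likelihood test with Benjamini-Hochberg adjustment), where 3.92% of all genes were called lower in DAH3615-MS and 3.95% in either direction. The selection used the same contrast, so this count says nothing further about the genes. The fitted log2 differences, DAH3615-MS over DAH3615, had a median of -10.85 and ran between -13.65 and -4.99. Fits with a library left out had a line term alone, because the additive model would have no residual degree of freedom there. The organs of the line with both libraries then served as its replicates, and organ differences entered the error. The other line was left with a single library. Counts of calls in those fits are therefore not read as results, and they cannot show how the additive fit depends on any library.

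The genes came from 967 genes that were abundant and similar between organs in DAH3615 by the same limits. Besides the 70 genes, 25 had 0 counts in both DAH3615-MS libraries and 872 reached 10 CPM in at least 1 DAH3615-MS organ. Of the 872, 834 reached 100 CPM or more, 29 lay between 20 and 100 CPM and 9 lay under 20 CPM at their higher DAH3615-MS value. Few genes thus lay near the limit of 10 CPM. The last genes inside it were Cla008341 at 9.17 CPM and Cla017595 at 8.97 CPM, and the nearest outside it were Cla002572 at 10.1 CPM and Cla021602 at 10.6 CPM in the higher of the DAH3615-MS organs. At the limit of 150 CPM, Cla016903 at 151 CPM and Cla016475 at 153 CPM lay inside, and Cla011559 at 149.7 CPM and Cla022265 at 144.7 CPM lay outside in the lower of the DAH3615 organs. The minimum of 150 CPM in both organs can itself keep out genes that lean strongly to 1 organ of DAH3615. The organ limit alone removed 0 genes. Its nearest members were Cla014245 and Cla010161 on the flower side, with ratios of 1.83 and 1.69 after 1 CPM was added, and Cla005278 and Cla012729 on the floral bud side, with 0.412 and 0.425.

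Descriptions of the genes came from the annotation table of the study, of which 1999 rows in order of gene ID were used, and these covered 12 of the 70 genes. The other 58 are given by their IDs. Positions are those of the count table on version 1 of the watermelon reference genome. Chromosome 0 there stands for an undetermined chromosome.

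Enzymes that act on sugars and the cell wall included the most abundant gene of the set. Cla000032 (chromosome 0, 9263939 to 9266653), described as a beta-D-glucosidase, an enzyme that removes glucose from glycosides, had 0 and 4 counts in DAH3615-MS flowers and floral buds, against 20640 and 12713 in DAH3615 flowers and floral buds. In DAH3615 this was 3268 CPM in flowers and 2258 CPM in floral buds, above every other gene of the set, and its DAH3615-MS level over both organs was 0.0130% (0.00354% to 0.0333%) of that in DAH3615. With the limit of 3 counts in place of 0, its flower level was at least 5707-fold lower in DAH3615-MS. Cla001889 (chromosome 11, 26855256 to 26857263), a pectinesterase, which removes methyl groups from pectin in the wall, had 2 and 1 counts in DAH3615-MS flowers and floral buds, against 3618 and 2247 in DAH3615 flowers and floral buds. That was 0.0555% (0.0114% to 0.162%) of the DAH3615 level. The description of Cla001387 (chromosome 9, 16705635 to 16706552), a Phi-1 protein, names no enzyme. It had 0 and 1 counts in DAH3615-MS flowers and floral buds, against 1552 and 1136 in DAH3615 flowers and floral buds. The few DAH3615-MS counts of these genes were too low to rank the organs.

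The actin cytoskeleton was represented by Cla001608 (chromosome 2, 7996672 to 7998106), a LIM domain protein. Plant LIM proteins bind and bundle actin filaments, and members of the family act in pollen. It had 1 and 1 counts in DAH3615-MS flowers and floral buds, against 5913 and 3772 in DAH3615 flowers and floral buds, or 0.0224% (0.00271% to 0.0809%) of the DAH3615 level. The study listed a quantitative RT-PCR assay for a LIM domain protein. Among the 1999 annotation rows used, its UniProt entry was carried by this gene alone, and the remaining rows were not used. In the study that assay, run on biological replicates, differed between the lines in floral buds and in flowers (Student's t-test). Its primers, shown because the assay may belong to this member of the set, are written 5′ to 3′ in lower case.
LIM forward: gaaagcagaaaagcccaccg
LIM reverse: gtcccgttcaccgtaacctt

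Genes named for pollen or for defence were also among the described members. Cla002347 (chromosome 1, 4447137 to 4447709), named after the grass pollen allergen Phl p 11, had 6 and 3 counts in DAH3615-MS flowers and floral buds, against 3120 and 2018 in DAH3615 flowers and floral buds. Its 9 DAH3615-MS counts were 0.190% (0.0868% to 0.361%) of the DAH3615 level, the second highest of the 12 described genes. The highest was Cla001244 (chromosome 6, 4362515 to 4364131), a leucine-rich repeat family protein, with 5 and 0 counts in DAH3615-MS flowers and floral buds, against 1632 and 922 in DAH3615 flowers and floral buds. It stood at 0.212% (0.0689% to 0.496%) of DAH3615, with all its DAH3615-MS counts in flowers. Cla001625 (chromosome 2, 8341185 to 8341664), a pathogenesis related protein-1, belongs to a family first described in infected tobacco leaves. It had 0 and 1 counts in DAH3615-MS flowers and floral buds, against 1854 and 1271 in DAH3615 flowers and floral buds. Cla001970 (chromosome 9, 25774346 to 25775133), an unknown protein in the annotation, had 3 and 1 counts in DAH3615-MS flowers and floral buds, against 4970 and 3241 in DAH3615 flowers and floral buds.

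Copper oxidases formed the largest group among the described genes. Multicopper oxidases are a family of enzymes that includes laccases, which oxidise phenolic compounds, and ascorbate oxidases, which act on ascorbate. The group held 4 members, which lay next to each other on chromosome 2 between 34369337 and 34385090, a stretch of 15754 bp. Cla003118 (Laccase-6) had 0 and 1 counts in DAH3615-MS flowers and floral buds, against 1895 and 1227 in DAH3615 flowers and floral buds. Cla003117 (L-ascorbate oxidase-like protein), which starts 100 bp beyond Cla003118 on the same strand, had 0 and 2 counts in DAH3615-MS flowers and floral buds, against 5635 and 3443 in DAH3615 flowers and floral buds. These 2 neighbours on the plus strand were followed by 2 on the minus strand. Cla003116 (Laccase-3) had 0 and 4 counts in DAH3615-MS flowers and floral buds, against 6647 and 4038 in DAH3615 flowers and floral buds. Cla003115 (Laccase-8) had 0 and 2 counts in DAH3615-MS flowers and floral buds, against 7015 and 4893 in DAH3615 flowers and floral buds. All 9 DAH3615-MS counts of the 4 genes were thus in floral buds, and their flower levels were at least 1940-fold (Cla003115), 1838-fold (Cla003116), 1558-fold (Cla003117) and 524-fold (Cla003118) lower in DAH3615-MS. Reads that near-identical copies could share were not examined, so the split of counts among these neighbouring genes is uncertain.

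The next gene on the same side, Cla003119, a type I multi-copper oxidase at 34364219 to 34366040, was outside the set only because it had 0 counts in both DAH3615-MS libraries. It had 5175 counts in DAH3615 flowers and 3154 in DAH3615 floral buds, and was at least 1431-fold lower in DAH3615-MS flowers and at least 1079-fold lower in DAH3615-MS floral buds. With it, the run of 5 genes summed to 0 and 9 counts in DAH3615-MS flowers and floral buds, against 26367 and 16755 in DAH3615 flowers and floral buds. The pattern stopped on both sides. Cla003120 had 23 and 19 counts in DAH3615-MS flowers and floral buds, against 11 and 19 in DAH3615 flowers and floral buds, and was not called (adjusted p = 0.716, edgeR's quasi-likelihood test with Benjamini-Hochberg adjustment). On the other side Cla003114, a receptor-like kinase, had 31 and 43 counts in DAH3615-MS flowers and floral buds, against 16 and 34 in DAH3615 flowers and floral buds (adjusted p = 0.528, same test in edgeR).

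**Figure D2:**
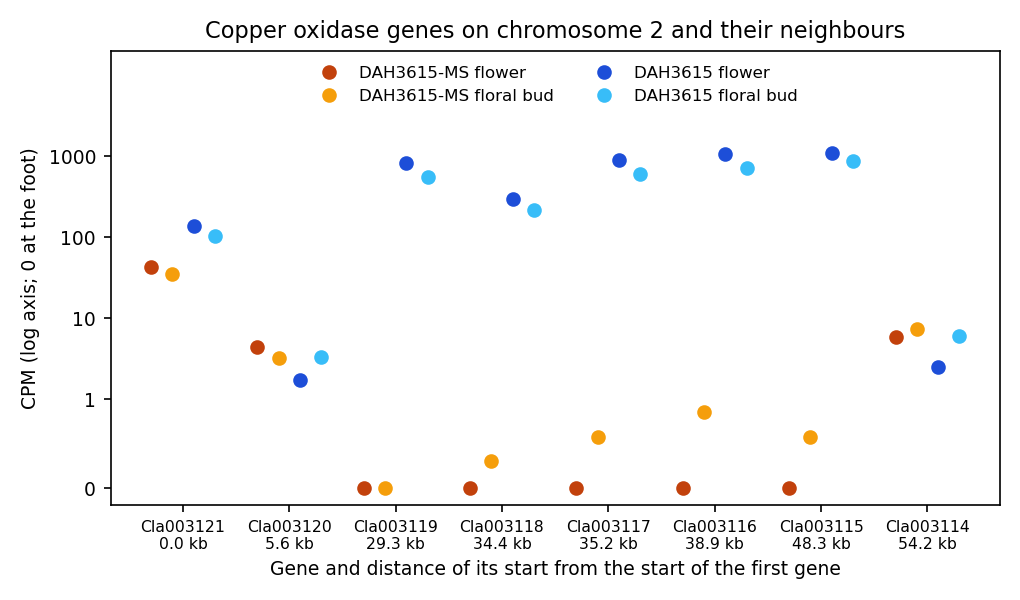
CPM (log axis, with 0 at the foot) of the copper oxidase genes and their neighbours on chromosome 2 in the 4 libraries, in order along the chromosome with the distance of each start from the first one in kb. The 5 genes between Cla003119 and Cla003115 have 0 to 4 counts per DAH3615-MS library, while Cla003120 and Cla003114 beside them have 19 to 43.

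The other members that lay close together had no description. On chromosome 6, Cla006729 (3822981 to 3823265) had 1 and 0 counts in DAH3615-MS flowers and floral buds, against 2475 and 2241 in DAH3615 flowers and floral buds. Its neighbour Cla006730 (3831864 to 3832269) had 0 and 1 counts in DAH3615-MS flowers and floral buds, against 2616 and 1711 in DAH3615 flowers and floral buds. Cla006728, on the other side of Cla006729, met the same limits with 0 counts in both DAH3615-MS libraries, against 3265 and 2140 counts in DAH3615 flowers and floral buds. This was a second place where neighbours with traces and a neighbour at 0 stood together. On chromosome 10, Cla004437 (4769860 to 4777184) had 2 and 2 counts in DAH3615-MS flowers and floral buds, against 2303 and 1233 in DAH3615 flowers and floral buds. Next to it, Cla004436 (4783644 to 4790332) had 0 and 3 counts in DAH3615-MS flowers and floral buds, against 5537 and 3409 in DAH3615 flowers and floral buds. On chromosome 3, Cla005213 and Cla005211 were both members, but Cla005212 between them had 284 and 284 counts in DAH3615-MS flowers and floral buds, against 296 and 242 in DAH3615 flowers and floral buds (adjusted p = 0.897, edgeR's quasi-likelihood test with Benjamini-Hochberg adjustment). Neighbours in gene order could therefore differ completely in this respect.

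In all, 8 of the 70 genes were directly next to another member and 10 had a member within 3 genes, in 4 runs. The remaining 60 stood alone. Members were found on every chromosome of the table, the undetermined chromosome 0 included. Of these, 12 were on chromosome 2 (0.563% of its genes with a count) and 2 on chromosome 7 (0.131%). The share over all chromosomes was 0.355%. The 4 copper oxidases were among the 12 on chromosome 2. Of the 70 genes, 39 were on the plus strand.

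Ranked per length, as the mean DAH3615 CPM per kb of gene span, the set ran between 12.5 and 1386 with a median of 292. The first 10 were Cla006729 at 1386, Cla008341 at 1094, Cla000032 at 1018, Cla009288 at 1007, Cla019000 at 988, Cla006730 at 884, Cla009690 at 874, Cla001970 at 865, Cla017027 at 786 and Cla011142 at 778 CPM per kb. Span includes introns, which lowers the value of long genes. Only Cla000032 and Cla001970 of these have a description in the rows used. Cla009288 (chromosome 6, 5360491 to 5362192) had 0 and 2 counts in DAH3615-MS flowers and floral buds, against 12762 and 7931 in DAH3615 flowers and floral buds. Cla017027 (chromosome 10, 20760678 to 20762256) had 0 and 3 counts in DAH3615-MS flowers and floral buds, against 9412 and 5590 in DAH3615 flowers and floral buds. Of the first 10 per length, all but Cla008341 had at most 5 counts over both DAH3615-MS libraries. Cla019000 (chromosome 6, 24249558 to 24250031) had 0 and 1 counts in DAH3615-MS flowers and floral buds, against 3317 and 2317 in DAH3615 flowers and floral buds. Cla009690 (chromosome 1, 32106509 to 32107107) had 0 and 1 counts in DAH3615-MS flowers and floral buds, against 3813 and 2499 in DAH3615 flowers and floral buds. Cla011142 (chromosome 3, 25690214 to 25690793) had 1 and 4 counts in DAH3615-MS flowers and floral buds, against 3272 and 2163 in DAH3615 flowers and floral buds. The median span of the 70 genes was 1852 bp, against 867 bp for the 25 genes at 0 in DAH3615-MS, 3968.5 bp for the 872 genes above the limit and 2323 bp for all genes with a count.

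The trace in DAH3615-MS was not of one size. Summed over the set, the DAH3615-MS level was 0.172% (0.155% to 0.189%) of that in DAH3615 for flowers and 0.279% (0.256% to 0.304%) for floral buds. Gene by gene, over both organs, the median was 0.0545% and the range 0.00671% to 3.42%. By the number of DAH3615-MS counts, 20 genes had a single one, 12 had 2 or 3, 20 had between 4 and 9, and 18 had 10 or more. The 18 genes held 765 of the 925 DAH3615-MS counts, or 82.7%. They were not the most abundant ones in DAH3615, where their median was 325 CPM, against 470 CPM for the other 52.

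**Figure D3:**
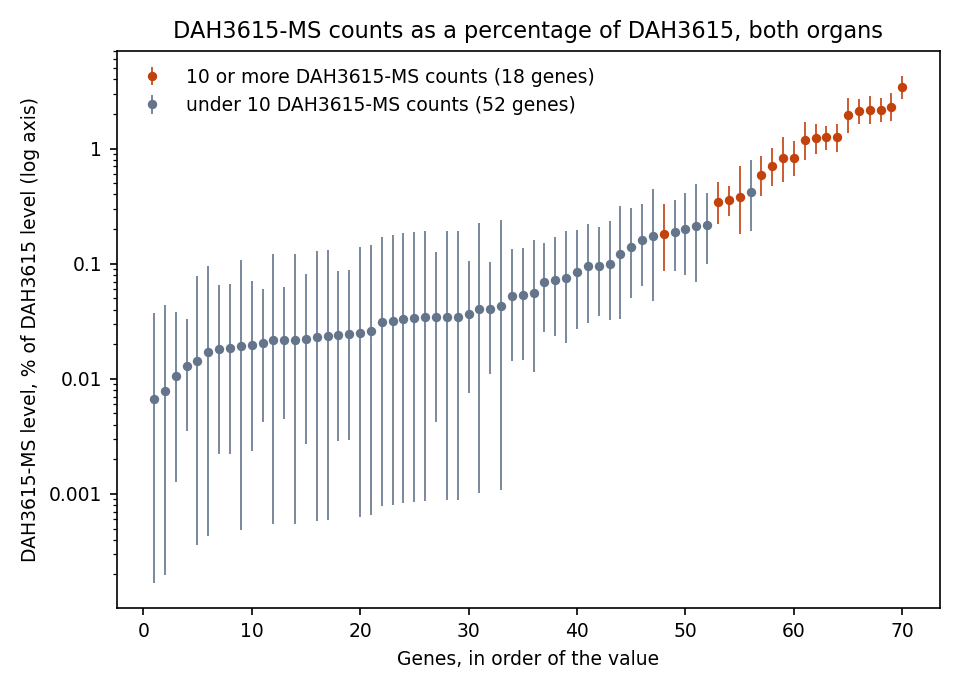
DAH3615-MS level of each of the 70 genes over both organs as a percentage of its DAH3615 level (log axis), in rising order, with 95% exact counting intervals. Genes with 10 or more DAH3615-MS counts lie between 0.180% and 3.42%, and the 52 others between 0.00671% and 0.418% with intervals that mostly overlap each other.

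At the low end, Cla005213 (chromosome 3, 28048322 to 28050260) had 0 and 1 counts in DAH3615-MS flowers and floral buds, against 9907 and 6250 in DAH3615 flowers and floral buds, or 0.00671% (0.00017% to 0.0374%). Cla023448 (chromosome 11, 20822639 to 20825910) had 0 and 1 counts in DAH3615-MS flowers and floral buds, against 8485 and 5313 in DAH3615 flowers and floral buds, or 0.00786%. Cla003445 (chromosome 1, 13162653 to 13165721) had 0 and 1 counts in DAH3615-MS flowers and floral buds, against 4737 and 2921 in DAH3615 flowers and floral buds, or 0.0142%. With Cla009288 and Cla000032 these were the 5 lowest percentages, and the intervals of all 5 overlapped. A single fragment more or less would change their order.

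The 5 highest percentages were well measured in comparison. Cla017595 (chromosome 10, 24338964 to 24339443) had 47 and 34 counts in DAH3615-MS flowers and floral buds, against 1539 and 1026 in DAH3615 flowers and floral buds. At 3.42% (2.71% to 4.27%) of DAH3615 it had the highest trace of the set. Cla015255 (chromosome 9, 3134750 to 3151891), the longest gene of the set, had 26 and 29 counts in DAH3615-MS flowers and floral buds, against 1611 and 971 in DAH3615 flowers and floral buds, or 2.31% (1.74% to 3.02%). Cla008341 (chromosome 1, 10236194 to 10236481) had 23 and 53 counts in DAH3615-MS flowers and floral buds, against 2227 and 1563 in DAH3615 flowers and floral buds, or 2.17% (1.71% to 2.73%). Cla010883 (chromosome 7, 30770155 to 30775727) and Cla016975 (chromosome 10, 21442070 to 21446374) followed at 2.17% (1.63% to 2.84%) and 2.11% (1.62% to 2.70%). The intervals of these 4 genes overlapped each other and, except for Cla016975, that of Cla017595, and all 5 lay above those of the 5 lowest genes.

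Which organ of DAH3615-MS held the trace was not fixed by the selection. Over the set the flower to floral bud ratio of summed CPM was 0.826 (0.723 to 0.942) in DAH3615-MS, against 1.34 (1.33 to 1.35) in DAH3615. The ratio in DAH3615-MS rested in part on Cla005573 and Cla021494, without which it was 0.981. Of the 70 genes, 28 had DAH3615-MS counts in floral buds alone, 8 in flowers alone and 34 in both. Zero counts were found for 28 genes in DAH3615-MS flowers and for 8 in DAH3615-MS floral buds. Because there was 1 library per condition, these differences were not tested.

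Among the 52 genes with under 10 DAH3615-MS counts, 63 counts were in flowers and 97 in floral buds, a ratio of 0.716 (0.513 to 0.994). Of these genes, 35 (67.3%) were higher in DAH3615-MS floral buds, against 46.6% of the 2356 other genes with under 10 counts and under 10 CPM in DAH3615-MS, whose summed ratio was 0.977 (0.936 to 1.02). Among the 18 genes with 10 or more counts, 10 were higher in DAH3615-MS floral buds, where 54.2% of 4382 other genes in the same range were, and the summed ratio was 0.850 (0.735 to 0.983). That ratio rested on Cla005573 and Cla021494, without which the other 16 genes summed to 331 counts in flowers and 346 in floral buds, a ratio of 1.06 (0.905 to 1.23). The shares of the 18 genes and of the other genes in their range were close.

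Single genes differed widely behind these sums. Cla005573 (chromosome 9, 33818621 to 33822361) had 2 and 51 counts in DAH3615-MS flowers and floral buds, against 2752 and 1801 in DAH3615 flowers and floral buds. Its flower to floral bud ratio was 0.0433 (0.00510 to 0.164) in DAH3615-MS and 1.36 in DAH3615. Cla021494 (chromosome 5, 3615808 to 3619271) had 0 and 35 counts in DAH3615-MS flowers and floral buds, against 2896 and 1673 in DAH3615 flowers and floral buds. Both genes were near 0 in DAH3615-MS flowers and well above it in DAH3615-MS floral buds, while in DAH3615 both were higher in flowers. The reverse was seen for Cla016475 (chromosome 11, 21731018 to 21731497), with 32 and 2 counts in DAH3615-MS flowers and floral buds, against 1013 and 864 in DAH3615 flowers and floral buds. Its ratio was 17.6 (4.50 to 152) in DAH3615-MS and 1.05 in DAH3615.

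Smaller organ differences were found for further members. Cla015027 (chromosome 9, 8834281 to 8836197) had 4 and 20 counts in DAH3615-MS flowers and floral buds, a ratio of 0.221 (0.0548 to 0.659), against 3905 and 3634 counts in DAH3615. Cla022444 (chromosome 8, 23690649 to 23697031) had 7 and 23 counts in DAH3615-MS flowers and floral buds, a ratio of 0.336 (0.122 to 0.808), against 1744 and 984 counts and a ratio of 1.58 in DAH3615. For Cla008341 the ratio was 0.479 (0.280 to 0.795) in DAH3615-MS and 1.27 in DAH3615. These 3 genes leaned to the floral bud in DAH3615-MS beyond counting error. Cla016975, with 42 and 23 counts in DAH3615-MS flowers and floral buds, leaned to the flower in both lines, at 2.01 (1.18 to 3.51) in DAH3615-MS and 1.43 in DAH3615. The intervals of Cla014245, with 6 and 15 counts, of Cla021712, with 15 and 11, and of Cla021759, with 6 and 4 in DAH3615-MS flowers and floral buds, included a ratio of 1. Over the 18 genes the interval lay above 1 for 2, below 1 for 5 and included 1 for 11. After 1 CPM was added, 3 of the 70 genes differed at least 3-fold between the DAH3615-MS organs, 2 higher in floral buds and 1 in flowers. The share was 10.3% of all genes with a DAH3615-MS count and 5.86% of the others under 10 CPM. The added 1 CPM keeps genes with low values in both organs from reaching 3-fold. Many of the 70 genes lie there, with medians of 0.191 CPM in DAH3615-MS flowers and 0.346 CPM in DAH3615-MS floral buds. The 3 genes are therefore not read against those shares.

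**Figure D4:**
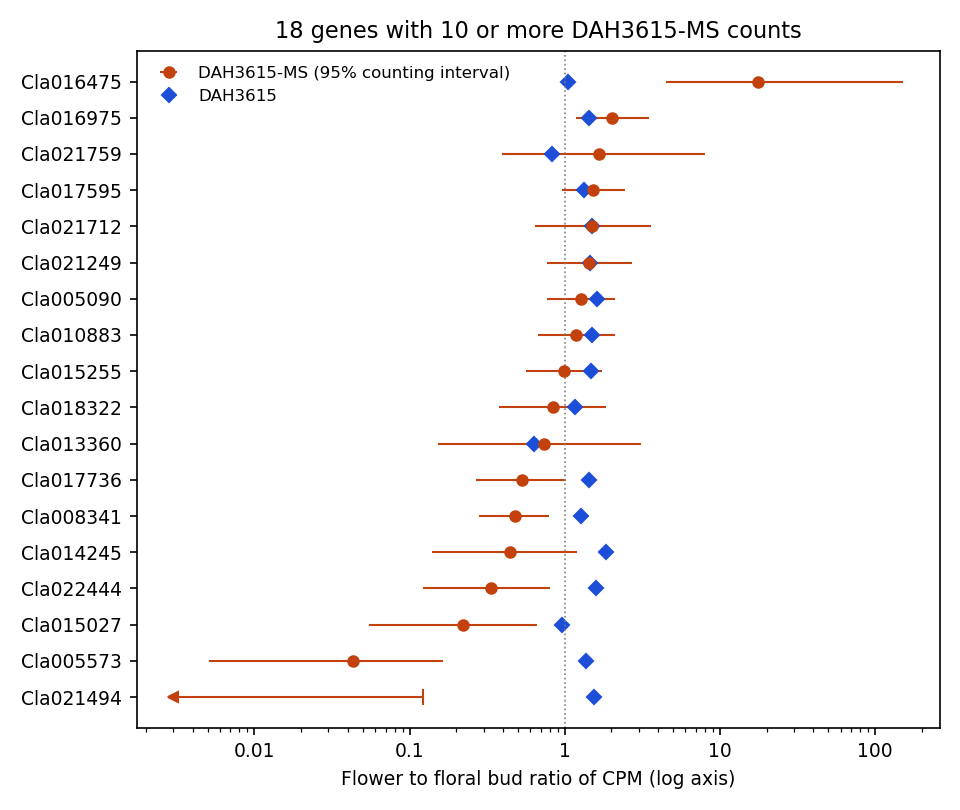
Flower to floral bud ratio of CPM (log axis) of the 18 genes with 10 or more DAH3615-MS counts, with 95% exact counting intervals in DAH3615-MS and the DAH3615 ratio as a diamond. Cla016475 lies at 17.6 and Cla005573 at 0.0433 in DAH3615-MS, and the arrow of Cla021494, which had 0 flower counts, ends at its upper limit of 0.123, while the DAH3615 ratios stay between 0.638 and 1.84.

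In the fertile line the members shared a narrow organ ratio within the limits that the selection allowed. The median flower to floral bud ratio in DAH3615 was 1.42 (0.410 to 1.84), and the middle 50% of the genes lay between 1.33 and 1.47. Of the 70 genes, 63 were higher in DAH3615 flowers, against 46.7% of the 19362 genes with a DAH3615 count. The share was 49.0% of the 872 genes that passed the same DAH3615 limits but were above the limit in DAH3615-MS. Abundance was not matched, since the median DAH3615 level was 405 CPM for the 70 genes and 280 CPM for the 872. Ratios between 1.3 and 1.8 were found for 53 of the 70 genes, against 147 (16.9%) of the 872. This band was not a planned limit and lies around the middle of the 70 genes, so the contrast is a description only. The 25 genes at 0 in DAH3615-MS were close to the 70, with a median of 1.36 and 19 of 25 (76.0%) higher in flowers. The additive model (edgeR's quasi-likelihood test with Benjamini-Hochberg adjustment) called 0 of the 70 genes between the organs at an adjusted p under 0.01. The share over all genes was 15.2%. In the same test 17 of the 70 genes had an unadjusted p under 0.05, against 7752 of all 19732 genes. DESeq2 also called 0 of the 70, against 2521 of all genes. The selection limited the organ ratio in DAH3615, which other genes were free to exceed, so nothing is read from these counts.

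**Figure D5:**
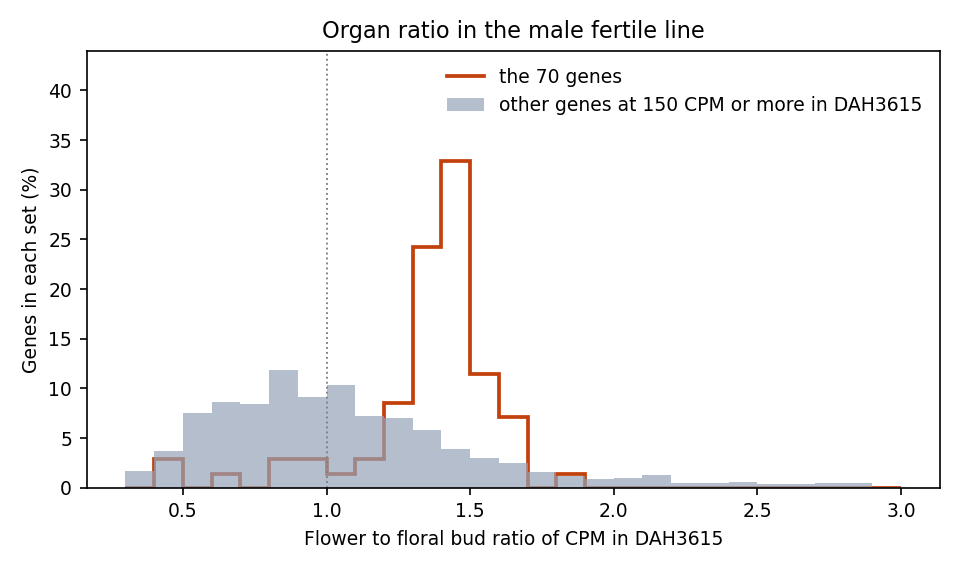
Share of genes (%) by flower to floral bud ratio of CPM in DAH3615. The line is the 70 genes, and the filled area is the 872 other genes that passed the same DAH3615 limits. The 70 genes concentrate around their median of 1.42, and the 872 genes spread around a median of 0.99.

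The 7 members that were higher in DAH3615 floral buds departed from this ratio to unequal degrees. Cla005278 (chromosome 10, 6304517 to 6305731) had 0 and 1 counts in DAH3615-MS flowers and floral buds, against 1107 and 2406 in DAH3615 flowers and floral buds, a DAH3615 ratio of 0.410. Cla012729 (chromosome 7, 25828125 to 25832061) had 2 and 0 counts in DAH3615-MS flowers and floral buds, against 2870 and 6024 in DAH3615 flowers and floral buds, a ratio of 0.425. Both had a trace below the median of the set. The ratios were 0.638 for Cla013360, 0.806 for Cla013638, 0.833 for Cla021759, 0.958 for Cla015027 and 0.985 for Cla006729. Under TMM scaling the last of these turned to the flower side, which left 6. At the other end stood Cla014245 at 1.84, Cla010161 at 1.69 and Cla004437 at 1.67.

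Gene lists were keyword matches to descriptions in the 1999 annotation rows, of which 3.90% were called lower in DAH3615-MS. A list can therefore hold genes of another function. Examples are the ER lumen protein retaining receptor-like proteins Cla002699 and Cla002700 among the kinases, and the proton pump interactors Cla000515 and Cla001512 among the transport genes. Over all 19732 genes the median log2 difference, DAH3615-MS over DAH3615, was -0.0067. Members in a list were picked for this difference, so their calls, and the part of a median or sum that rests on them, are fixed by the selection. The copper list held 6 genes, 4 of them members, of which 5 were lower in DAH3615-MS, with a median log2 difference of -11.62, or -11.28 with Cla003119, at 0 in DAH3615-MS, set to its bound. Its summed level was 29.8 and 36.7 CPM in DAH3615-MS flowers and floral buds, against 4208 and 3022 CPM in DAH3615 flowers and floral buds. All of these genes but Cla001819 (Laccase-22), which was not called (adjusted p = 0.313, edgeR's quasi-likelihood test with Benjamini-Hochberg adjustment), came from the run on chromosome 2. Of the 2 copper genes that were not members, 1 was lower, Cla003119. In the pectin list 4 of 13 genes were lower, with a median of -1.11. These were the member Cla001889, the polygalacturonases Cla000006 and Cla001080, and the pectin methylesterase inhibitor Cla000817, which makes 3 of 12 without the member. In the actin cytoskeleton list 2 of 5 were lower, the member Cla001608 and the profilin Cla000908, with 4 and 16 counts in DAH3615-MS flowers and floral buds, against 282 and 332 in DAH3615 flowers and floral buds. The median of that list was 0.15, and without the member 1 of 4 was lower. In edgeR 0 genes of any list described here were called higher in DAH3615-MS.

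The list named for pollen or anther held 1 member, Cla002347, and the lists that follow held 0. Lower in DAH3615-MS were 1 of 11 microtubule genes (median log2 difference -0.24), 1 of 4 arabinogalactan and GPI-anchored protein genes (0.13), 1 of 2 lipid transfer protein genes (-3.68), 2 of 12 transport genes (-0.043) and 3 of 80 kinase genes (0.014). Of 5 desiccation genes 2 were lower, with a median of -3.28, or -1.22 with genes at 0 in DAH3615-MS set to their bound. In edgeR 0 of 14 calcium genes (-0.043) were called. Of the 6 genes named for pollen or anther 2 were lower, with a median of -3.52, or -2.41 with the bound. They were the member Cla002347 and Cla003043 (Pollen Ole e 1 allergen and extensin family protein), the second of which kept 8 and 108 counts in DAH3615-MS flowers and floral buds, against 170 and 1142 in DAH3615 flowers and floral buds.

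Marker genes of other cells were too few to read a count of calls against the 3.92% of all genes called lower, and their levels are given as a description. The 7 genes for photosynthesis proteins of green floral tissue summed to 1135 and 1082 CPM in DAH3615-MS flowers and floral buds, against 980 and 781 CPM in DAH3615 flowers and floral buds, and 0 of them were called. The 3 floral organ identity genes summed to 270 and 524 CPM in DAH3615-MS flowers and floral buds, against 254 and 367 CPM in DAH3615 flowers and floral buds, with 0 called. Nearly all of these sums came from Cla000691, with 1414 and 3019 counts in DAH3615-MS flowers and floral buds, against 1587 and 2060 in DAH3615. Cla002356 had 3 and 10 counts in DAH3615-MS, against 16 and 2 in DAH3615. For Cla001399 the counts were 0 and 0 in DAH3615-MS, against 2 and 3 in DAH3615. The 8 pollen marker genes, which include the members Cla001608 and Cla002347, summed to 7.64 and 30.3 CPM in DAH3615-MS flowers and floral buds, against 1510 and 1298 CPM in DAH3615 flowers and floral buds, with 4 called lower. Cla002397, another Phl p 11 allergen gene of that list, was at 0 in DAH3615-MS and had 0 and 2 counts in DAH3615 flowers and floral buds. The members supplied most of the DAH3615 sum and 2 of the 4 calls, which the selection fixed. The 6 other pollen markers summed to 6.30 and 29.6 CPM in DAH3615-MS flowers and floral buds, against 80.0 and 269 CPM in DAH3615 flowers and floral buds, with 2 called lower, Cla000908 and Cla003043. Cla002155 (Pollen Ole e 1 allergen and extensin family protein) had 12 and 45 counts in DAH3615-MS flowers and floral buds, against 10 and 18 in DAH3615 flowers and floral buds. The part of pollen cells in the result was not tested.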

How the data were processed

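RNA of floral buds and flowers of both lines was sequenced in 4 libraries. After adapter removal in Trimmomatic, the authors mapped the read pairs to version 1 of the watermelon genome (Bowtie2 within TopHat2) and used HTSeq to count reads on annotated genes. These raw counts were deposited, with no scaling. The versions of these tools and the strand setting are not given in the sources used here, so overlapping and near-identical genes are uncertain.

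CPM was computed from column sums. Line and organ effects were fitted together on the 19732 genes with at least 1 count, using TMM factors and the quasi-likelihood test of edgeR 4.0.16 in R 4.3.3 with Benjamini-Hochberg adjustment, and called at an adjusted p under 0.01. With 1 residual degree of freedom and no replicates, p-values do not carry variation between plants. Fits with 1 library left out had a line term and no organ term. TMM moved the log2 difference between the lines by -0.15 in flowers and -0.13 in floral buds relative to column sums. Ratios had 95% exact binomial or conditional intervals, and a count of 0 was set to a floor of 3 counts per library for fold bounds. DESeq2 1.42.0 was an alternative, with limma 3.58.1 loaded by edgeR. Other work used Python 3.11.15, numpy 2.4.6, pandas 2.3.3, scipy 1.17.1 and matplotlib 3.10.9.

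Named genes were the 10 members highest in DAH3615 per kb, the 5 highest and 5 lowest DAH3615-MS percentages, the 5 largest DAH3615-MS organ ratios in each direction among members with at least 10 counts, all described or neighbouring members, the genes at each limit, and the member tied to an assay by UniProt ID. Genes listed as neighbours, marker genes and the remaining bud-leaning members were named after their values were seen. The lists were pectin, actin cytoskeleton, microtubule, calcium, arabinogalactan and GPI-anchored, copper, lipid transfer, desiccation, transport, kinases, pollen or anther named, and markers of green floral tissue, floral organ identity and pollen. Members and lists were chosen with earlier results of these data known. A further list is not reported here.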

Additional observations from a re-analysis of the deposited data

Results flagged for a closer look

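The summed organ ratio of the 70 genes lay on opposite sides of 1 in the lines. The flower to floral bud ratio was 0.826 in DAH3615-MS and 1.34 in DAH3615. The DAH3615-MS value rested in part on Cla005573 and Cla021494, without which it was 0.981. For members with 10 or more DAH3615-MS counts it was 1.06 without that pair. With 1 library per condition the difference between the lines was not tested, nor were those of the single genes that follow. These were taken from the members whose counting interval in DAH3615-MS lay below 1 while the DAH3615 ratio lay above it.

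For Cla005573 the flower to floral bud ratio was 0.0433 in DAH3615-MS and 1.36 in DAH3615. Cla008341 had 0.479 in DAH3615-MS and 1.27 in DAH3615. Cla021494 had 0 in DAH3615-MS, where flowers held 0 counts and floral buds 35, and 1.54 in DAH3615. For Cla022444 the values were 0.336 in DAH3615-MS and 1.58 in DAH3615.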

How the results depend on the processing

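No paired analysis was possible because the labels carry no replicate numbers and each condition has 1 library. Between the lines, 780 genes were called, 1339 with edgeR's likelihood ratio test, and 0 to 405 with 1 library left out. Of the 70 genes, 0 to 69 were called with 1 library left out. The fits with 1 library left out had no organ term and left 1 line with a single library. Their counts, the 0 included, come from another model and cannot show how the additive fit depends on any library. DESeq2 called 69, all but Cla021494 (adjusted p = 0.0316). Between the organs, 2993 genes were called and 4933 with the likelihood ratio test. Of the 70 genes, 1 was called with that test and 1 with column sums alone, Cla005278 in both. The limits gave 44 genes at 300 CPM in DAH3615 and 42 with at least 3 DAH3615-MS counts, all of them among the 70. The DAH3615-MS percentage was 0.255% in floral buds and 0.155% in flowers under TMM, 0.152% in flowers without Cla017595, and 0.0818% in floral buds and 0.0342% in flowers as the median gene. The organ ratio in DAH3615-MS was 0.716 for genes with under 10 counts and 0.981 without Cla005573 and Cla021494. It turned to 1.06 for genes with 10 or more counts without that pair. These settings were chosen after seeing the data. Under TMM the organ ratio was 0.848 in DAH3615-MS and 1.39 in DAH3615, where the median gene had 1.42. No other summed result turned direction under the alternatives run. Depth limits the low traces, since 32 genes rest on 3 or fewer DAH3615-MS counts.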

Other observations

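Beyond the 2 members on chromosome 10, 1 of the 3 nearest genes named here was called lower in DAH3615-MS. Cla004435 had 3 and 5 counts in DAH3615-MS flowers and floral buds, against 230 and 122 in DAH3615 flowers and floral buds (adjusted p = 7.61e-05, edgeR's quasi-likelihood test with Benjamini-Hochberg adjustment). On the other side, Cla004438 had 0 counts in both DAH3615-MS libraries, against 31 and 3 in DAH3615 flowers and floral buds (adjusted p = 0.0396, same test in edgeR). Beyond it, Cla004439 had 0 counts in both DAH3615-MS libraries, against 17 and 1 in DAH3615 flowers and floral buds (adjusted p = 0.140, same test in edgeR). Neither of these was called, and their DAH3615 floral bud counts were too low to show a difference.

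Near the copper oxidase run, Cla003121, a RING finger protein 44, had 226 and 205 counts in DAH3615-MS flowers and floral buds, against 877 and 583 in DAH3615 flowers and floral buds (adjusted p = 0.000651, edgeR's quasi-likelihood test with Benjamini-Hochberg adjustment). It lay beyond Cla003120, which was not called. These genes were named after their values were seen.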
